A study of Mus musculus with 4 samples.

Results

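On chromosome 15 of mouse neural stem cells that overexpressed Six3, called CUT&RUN regions formed a raised block that includes the proto-oncogene Myc. The block was taken as every called region of the deposited table whose midpoint lies between its 2 bounds on chromosome 15 (mm10). Its regions with a highest signal in steps of 1.9 run from 54501336 to 69998736. It held 12769 of 1578514 regions, of which 9691 had a highest signal that was a whole multiple of 1.9 (1.9-step regions) and 3078 a whole multiple of 0.48 (0.48-step regions). The multiple is the height in steps. CUT&RUN tethers micrococcal nuclease to an antibody-bound chromatin protein, and the fragments it releases there are sequenced. The series has 3 FLAG libraries, which target the tagged Six3, and 1 IgG library, the control without a specific target. All come from primary neural stem cells of WT genotype that overexpressed Six3, 3 h after a change from N-2 medium with growth factors to neurobasal medium with B-27. The table does not say which libraries it combines, so a region belongs to no single library, the FLAG group was not set against the IgG group, depth is unknown and no value has a replicate error. The block is compared with chromosome 15 below it, from 3 Mb up to its lower bound, where 32316 regions lay.

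The bounds of the block were chosen from the summed 1.9-step signal of this same table. All 1.9-step values are therefore a description, and no test was run on them. Coverage scales both with how much of a sequence is cut and with how much of that sequence the cells hold. No input library was analysed here, so these cannot be told apart.

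Six3, a homeodomain protein needed for forebrain and eye formation, can repress transcription. Myc encodes a transcription factor that drives cell growth and proliferation, in neural progenitors among other cells. Pvt1, beside it, is a long noncoding RNA gene whose promoter and enhancers are known to influence Myc. The sequence around these genes is a gene desert rich in distant enhancers, flanked by Trib1, a pseudokinase gene, on the lower side and by the gasdermin C genes, which encode membrane pore proteins, on the upper side.

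Of the sequences under the block, the 250 bases upstream of a gene start could be read from RefSeq (GRCm38.p6, the coordinates of mm10) for 37 starts of 33 genes. Myc and Pvt1 are not among them. A 1.9-step region overlapped 22 of the 37 sequences by at least 1 base, against 31.9% of 32619 such sequences on the autosomes and X. In the block 54.7% of all 250-base tiles were touched by a 1.9-step region, so nothing particular to gene starts is read from this count. In the part with the highest signal, 61.3 to 64.7 Mb (the Myc plateau, below), it did so for 7 of 10, where 76.9% of 250-base tiles were touched. The 4 sequences shown all lie in the Myc plateau. The upstream sequences of the noncoding genes D030024E09Rik and Gm30113 lay wholly under regions with a highest signal of 11.4, the tallest at any upstream sequence of the plateau. The region at D030024E09Rik spanned 61773591 to 61774717, and that at Gm30113 spanned 62953503 to 62954293. Gm41334 carried a region with a highest signal of 5.7 and Gsdmc3 carried none. Capitals mark TAAT or ATTA, the core letters of many homeodomain sites, and TGATAC or GTATCA, described for fly relatives of Six3. Both strands were searched.
D030024E09Rik (chr15:61774452-61774701, minus strand): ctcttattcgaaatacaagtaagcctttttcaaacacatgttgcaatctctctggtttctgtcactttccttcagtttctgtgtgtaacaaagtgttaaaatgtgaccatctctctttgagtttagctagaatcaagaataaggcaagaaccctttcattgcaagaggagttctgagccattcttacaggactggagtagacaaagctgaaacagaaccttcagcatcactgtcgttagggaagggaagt
Gm30113 (chr15:62953966-62954215, plus strand): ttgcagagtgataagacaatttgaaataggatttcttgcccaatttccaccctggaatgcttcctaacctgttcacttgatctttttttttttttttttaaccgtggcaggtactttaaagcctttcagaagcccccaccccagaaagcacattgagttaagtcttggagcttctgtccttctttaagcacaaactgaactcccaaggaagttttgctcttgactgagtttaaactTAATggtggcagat
Gm41334 (chr15:63070765-63071014, minus strand): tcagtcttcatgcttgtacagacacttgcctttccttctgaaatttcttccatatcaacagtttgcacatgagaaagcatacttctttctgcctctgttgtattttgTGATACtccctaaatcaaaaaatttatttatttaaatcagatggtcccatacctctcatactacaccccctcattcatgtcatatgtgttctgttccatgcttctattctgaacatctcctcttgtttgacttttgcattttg
Gsdmc3 (chr15:63878559-63878808, minus strand): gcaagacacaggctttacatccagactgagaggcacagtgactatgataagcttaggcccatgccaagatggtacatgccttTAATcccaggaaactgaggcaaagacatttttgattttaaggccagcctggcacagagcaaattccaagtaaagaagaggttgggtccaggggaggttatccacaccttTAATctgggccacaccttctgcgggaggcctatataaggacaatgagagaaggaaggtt
The sequence under a tall region at D030024E09Rik held neither motif, and that of Gsdmc3, with no region, held TAAT 2 times. Over the block, 30 of the 37 sequences held TAAT or ATTA and 2 held TGATAC or GTATCA. Among 32851 upstream sequences of the genome the shares were 54.9% and 4.64%. The 4-letter and 6-letter motifs can share a base, and base composition was not matched.

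Signal along the block was divided into 3 plateaus and 4 lower shelves. Levels are the summed 1.9-step signal in 100-kb bins, with the median bin of chromosome 15 below the block set to 1. The Myc plateau, from 61.3 to 64.7 Mb, had a median level of 4.93, with its 34 bins between 3.50 and 5.98. The Trib1 plateau, from 58.9 to 59.7 Mb, had a median of 3.65 (2.67 to 4.16 over 8 bins). It holds Mtss1, Sqle, Washc5, Nsmce2 and Trib1. The Tg plateau, from 66.5 to 67.0 Mb and named here for the thyroglobulin gene, had a median of 3.46 (2.07 to 4.15 over 5 bins). With 2 times the penalty on level changes, the changes at 66.5, 67.0 and 70 Mb were not found and 4 of the 7 remained.

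The shelves lay close to each other. Their medians along the chromosome were 1.89 from 54.2 to 58.9 Mb, 2.05 from 59.7 to 61.3 Mb, 1.70 from 64.7 to 66.5 Mb and 1.88 from 67.0 to 70 Mb. Of the 108 shelf bins inside the block, 0 reached the lowest bin of the Myc plateau. Of the 515 bins below the block, 3 did, all in a short raised stretch from 48.8 to 49.5 Mb. The Myc plateau stood at 2.41 times the shelf on its lower side and 2.91 times the shelf on its upper side. In bins of 500 kb, 30 of the 31 bins of the block exceeded 1.6 times the autosomal median, against 2.51% of 5132 bins over the autosomes and X. The block was chosen by that measure, so nothing is read from the count.

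**Figure D1:**
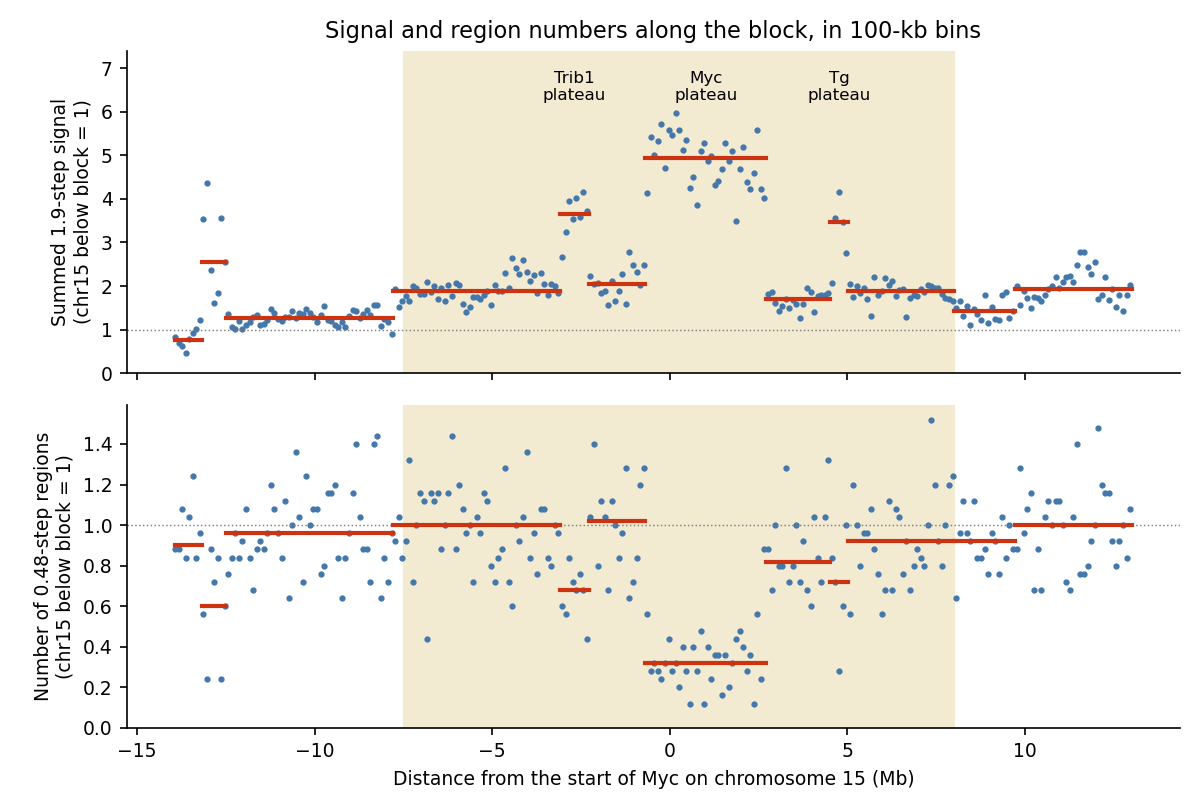
Summed 1.9-step signal (top) and number of 0.48-step regions (bottom) in 100-kb bins, each relative to the median bin of chromosome 15 below the block, against distance from the start of Myc. Points are bins, red lines are segment medians and the shaded span is the block; signal is at 4.93 on the Myc plateau, where the number of 0.48-step regions is at 0.320.

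In bins of 50 kb the Myc plateau had a sharp upper edge, whereas at its lower edge the level rose over several bins. At its lower edge the level was 3.82 and 4.44 in the bins just inside, against 2.16 and 2.82 in the bins just outside. The next bins inside had 4.93 and 5.90. At its upper edge the bin from 64.6 Mb had 5.62 and the bin from 64.65 Mb had 2.44, followed by 1.79 outside. The upper edge lies between Asap1, which encodes an Arf GTPase-activating protein, and Adcy8, which encodes an adenylyl cyclase, close to the lower end of Adcy8. The lower edge lies in the desert, 379 kb from the nearest protein-coding gene, A1bg.

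The lower edge of the Trib1 plateau, placed at 58.9 Mb by the 100-kb bins, fell at 58.95 Mb in bins of 50 kb, inside Mtss1. The level was 3.39 in the bin from 58.95 Mb, against 1.94 in the bin before, which holds most of Tatdn1 and all of Ndufb9. It was 5.10 in the bin from 59.6 Mb, which reaches the lower end of Trib1, and 2.34 in the next. The Tg plateau climbed through 2.29 and 2.56 and reached 4.58 in the bin from 66.65 Mb. From there it declined through 3.51 in the bin from 66.85 Mb and 2.73 in the bin from 66.95 Mb to 2.09 outside. Its upper side was thus a slope, whereas on its lower side the level rose from 2.56 to 4.58 between neighbouring bins.

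The lower bound of the block did not coincide with a change in level. The shelf in which it lies began at 54.2 Mb, near Tnfrsf11b, and the segment below it, from 49.5 Mb, stood at 1.27. The upper bound did coincide with a change, to a level of 1.42 from 70 to 71.7 Mb. From 71.7 to 75 Mb the level was 1.94, within the range of the shelves, so raised signal did not end at the upper bound. The members just inside the lower bound had highest signals of 5.7, 5.7 and 11.4, against 7.6, 7.6 and 3.8 for the regions just outside. At the upper bound the values were 3.8, 3.8 and 5.7 inside and 3.8, 7.6 and 3.8 outside.

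The raised signal was made of more, wider and taller regions at the same time. The block held 625 1.9-step regions per Mb, against 375 per Mb below the block, a fold of 1.67. They covered 40.9% of its sequence, against 19.1%, a fold of 2.14. The mean signal per covered base was 3.95, against 3.23. Summed signal per kb, which combines these, was 2.62 times as high. Chromosome 15 above the block held 569 1.9-step regions per Mb, which covered 31.6% of its sequence. A region enters the table only above the caller's threshold, so signal below that threshold is not counted in any of these sums.

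On the Myc plateau the 3 measures did not rise equally. Its number of regions per Mb was 1.88 times that below the block, less than the 2.05 times of the Trib1 plateau. Its covered share was 3.30 times and its signal per covered base 1.45 times that below the block, both higher than on the other plateaus. The median gap between neighbouring 1.9-step regions was 289 bp on the Myc plateau, against 1407 bp below the block, and its longest gap was 9275 bp.

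Tall regions were frequent in the block. Of its 1.9-step regions, 47.4% had 4 or more steps, that is a highest signal of at least 7.6 (95% exact binomial interval 46.4% to 48.4%), against 22.4% (21.9% to 23%) below the block. Over the autosomes and X the share was 22.7%. The intervals cover counting error only, and neighbouring regions are not independent. On the Myc plateau the share was 74.3%, on the Trib1 plateau 58.0%, on the Tg plateau 50.1% and over the 4 shelves 36.0%. Without the Myc plateau the block had 38.6%. Heights of 6 or more steps were reached by 1055 members, 10.9% of the 1.9-step regions of the block, against 1.52% below the block and 1.63% over the autosomes and X. The block spans 0.645% of the sequence of the autosomes and held 6.90% of their 1.9-step regions of 6 or more steps.

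**Figure D2:**
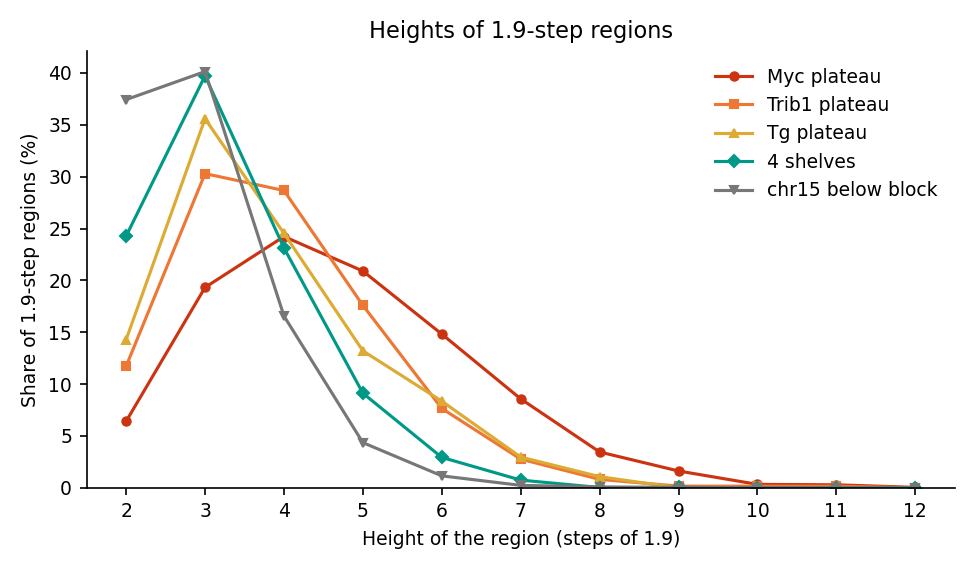
Share of 1.9-step regions (percent, vertical axis) at each height in steps of 1.9 (horizontal axis) for the 3 plateaus, the 4 shelves together and chromosome 15 below the block. The commonest height is 4 steps on the Myc plateau and 3 steps in every other area drawn.

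Low regions were correspondingly rare on the Myc plateau, where 6.41% of 1.9-step regions were 2 steps high, against 37.4% below the block. The tallest region of the block reached 12 steps, a highest signal of 22.8, at 62695384 to 62697952, in the desert between Pvt1 and the gasdermin genes. Of the 18 members of 10 or more steps, 16 lay on the Myc plateau. The 10 tallest members were between 720 and 3508 bp wide, and 9 of them lay on the Myc plateau. The last of these 10 was tied with other regions at a highest signal of 19. Only the region at 64152703 to 64155048, in Asap1, had its midpoint inside a protein-coding gene, and 2 lay in Pvt1. The exception to the plateau was a region with a highest signal of 20.9 at 59645823 to 59648198, which ends 0.456 kb from Trib1.

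Members were also wider. The median width of 1.9-step regions was 515 bp in the block and 684 bp on the Myc plateau, against 457 bp below the block. Widths of at least 1000 bp were found in 14.7% of the 1.9-step members (1426 regions), against 3.77% (728 regions) below the block. The widest, 7043 bp with a highest signal of 13.3, lay at 63489722 to 63496764, 279 kb from Gsdmc. The next spanned 5593 bp inside Asap1 (64353751 to 64359343). None of the 10 widest members was among the 10 tallest.

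Greater width went with greater height, but width differed at equal height too. At 6 steps the median width was 1044.5 bp on the Myc plateau (356 regions) and 731 bp in the rest of the block (263 regions), against 581 bp below the block (223 regions). At 3 steps the order was different, with 424.5 bp on the Myc plateau and 463 bp in the rest of the block, against 440.5 bp below the block. The low regions of the plateau were thus slightly narrower, and those of 4 or more steps wider.

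**Figure D3:**
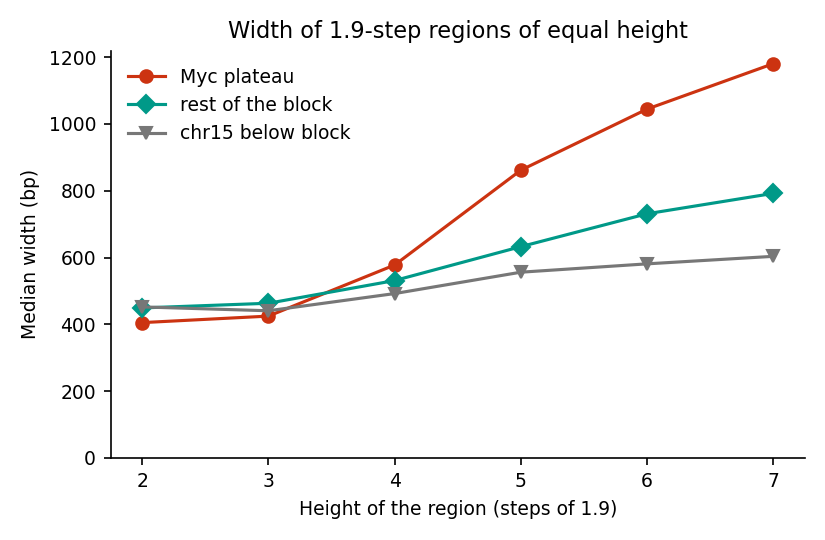
Median width in bp (vertical axis) of 1.9-step regions of equal height in steps of 1.9 (horizontal axis) on the Myc plateau, in the rest of the block and on chromosome 15 below the block. The curves lie close together at 2 and 3 steps and spread above, reaching 1044.5, 731 and 581 bp at 6 steps.

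Around Myc and Pvt1, regions were wider and taller than in the rest of the plateau, but the Myc gene itself was not a high point. In the window from 100 kb below Myc to 100 kb above Pvt1 (61885341 to 62360215), the median width of 346 1.9-step regions was 738 bp, and 81.8% of them had 4 or more steps. In the rest of the Myc plateau the median width was 671.5 bp and the share 73.0%. The covered share was 68.8% in the window and 62.1% in the rest of the plateau.

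Myc (chromosome 15, 61985341 to 61990361) was overlapped by 3 1.9-step regions, each with a highest signal of 7.6, and by 1 0.48-step region with 1.44. They covered 51.8% of the gene. Relative to chromosome 15 below the block, its signal per kb was 3.49, against a median of 4.93 and a middle range of 3.56 to 6.24 over the 680 tiles of 5 kb of the plateau. Taller regions stood below and above the gene, with a highest signal of 13.3 at 61981422 to 61982802 and at 61983047 to 61984620, and with 15.2 at 61998433 to 61999312, 13.5 kb from the start of Myc. Only the 1649-bp region at 61985566 to 61987214 overlapped a 0.48-step region within the gene.

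Pvt1 (chromosome 15, 62037986 to 62260215) had the highest signal per kb among the genes described here, 5.65 times the level below the block. It was overlapped by 152 1.9-step regions, which covered 69.0% of it, and by 14 0.48-step regions. Its tallest regions, both with a highest signal of 20.9, lay at 62090550 to 62092999 and at 62257915 to 62260500, across its upper end. Next to the second of these lay a region of 5153 bp with 17.1 (62250365 to 62255517). At its lower end, which faces Myc, the region at 62037551 to 62037996 had 3.8. Its neighbours had 13.3 (62036570 to 62037484) and 7.6 (62038052 to 62038544). In the interval between the genes, the 40 1.9-step regions reached a highest signal of 17.1, and their median width was 718.5 bp.

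**Figure D4:**
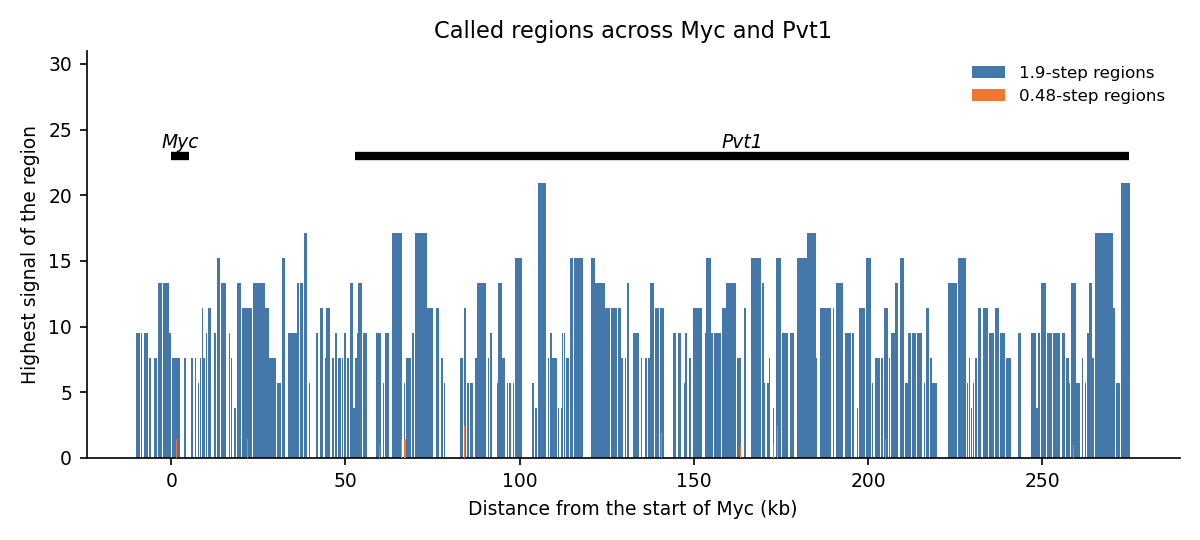
Called regions from 10 kb below Myc to the upper end of Pvt1, drawn to scale by start and width in kb from the start of Myc (horizontal axis), with bar height the highest signal of the region; black bars are the genes. Regions over Myc stand at 7.6, below neighbours at 13.3 and below the 20.9 reached in Pvt1.

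Signal in the protein-coding genes was highest on the Myc and Trib1 plateaus, with exceptions in both directions. The block overlaps 60 protein-coding genes, and their median signal per kb was 2.24 times the level below the block, with a range of 1.11 to 5.49. Of these, 55 exceeded 1.6 times, against 15.4% of the 21631 such genes on the autosomes and X, and 15 of 166 genes below the block. The block was chosen by this signal, so nothing is read from the count. The median was 4.36 over the 7 genes of the Myc plateau (2.47 to 5.49), 3.87 over the 7 of the Trib1 plateau (1.58 to 4.16) and 2.66 over the 6 of the Tg plateau (2.06 to 4.02). It was 2.02 over the 28 genes of the shelf next to the lower bound (1.11 to 3.88). On the shelf between the Trib1 and Myc plateaus it was 2.80 over 3 genes (1.89 to 3.27), above the Tg plateau. The shelf above the Myc plateau had 1.83 over 6 genes and the last shelf 1.85 over 3. Klhl38, on the shelf next to the lower bound, had 3.88, rank 9 of the 57 genes of at least 5 kb. Plateau genes with shelf-like values were Ndufb9 (1.58) and Tatdn1 (1.84) on the Trib1 plateau. On the Tg plateau they were Tmem71 (2.06), Ndrg1 (2.28) and Phf20l1 (2.29). Klhl38 and Tmem71 were singled out after their values were seen.

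The highest among the 57 genes of at least 5 kb were Gsdmc4 (5.49), Gsdmc (5.4), Cyrib (4.90), whose product binds the small GTPase Rac1, Asap1 (4.36) and Sqle (4.16), which encodes the squalene epoxidase of cholesterol synthesis. All but Sqle lie on the Myc plateau. The gasdermin C genes differed among themselves. Gsdmc2 had 2.83 and Gsdmc3 2.47, with 33.6% and 34.2% of their length covered, against 70.3% for Gsdmc and 68.3% for Gsdmc4. These genes are close paralogs, and it is not stated how reads that match several of them were placed, so the differences between them are uncertain.

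The lowest were Dscc1 (1.11), which encodes a sister chromatid cohesion factor, Mrpl13 (1.36), a mitochondrial ribosomal protein gene, Has2 (1.37), which encodes a hyaluronan synthase, Mal2 (1.38) and Ndufb9 (1.58). Dscc1, Mrpl13, Has2 and Mal2 lie on the shelf next to the lower bound. Ndufb9 lies just below the rise to the Trib1 plateau in 50-kb bins.

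Of the genes near Myc, 10 of 10 exceeded 1.6 times the level below the block, with a median of 3.93. Of all 60 protein-coding genes of the block, 55 exceeded it. Washc5, which encodes a subunit of the WASH complex, had 3.87 and Trib1 had 4.0, whereas Lratd2, on the shelf between the Trib1 and Myc plateaus, had 1.89 and Adcy8 had 1.82. Of the chromatin, replication and repair genes, 8 of 9 exceeded it, with a median of 2.26. The highest was Nsmce2 (3.92), which encodes a SUMO ligase of the SMC5/6 complex, followed by Atad2 (2.30), a bromodomain ATPase gene. Of the matrix and secreted protein genes, 5 of 6 did, with a median of 2.13. Tg had 4.02 and Ccn4 3.04, both on the Tg plateau, and Enpp2, which encodes autotaxin, had 1.66.

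The neural and membrane genes had a median of 1.85, and 7 of 7 exceeded 1.6 times. Mtss1, which encodes an actin and membrane binding protein, had 3.18, and Kcnq3, which encodes a subunit of the neuronal M-current channel, had 1.64. Of the metabolism and housekeeping genes 8 of 10 did, with a median of 1.93, and Deptor, an mTOR inhibitor gene, had 2.03. Over all protein-coding genes of the block, which was chosen by this signal, the count was 55 of 60. The lists differ in where their members lie along the block, and nothing particular to a list is read from these counts or medians.

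**Figure D5:**
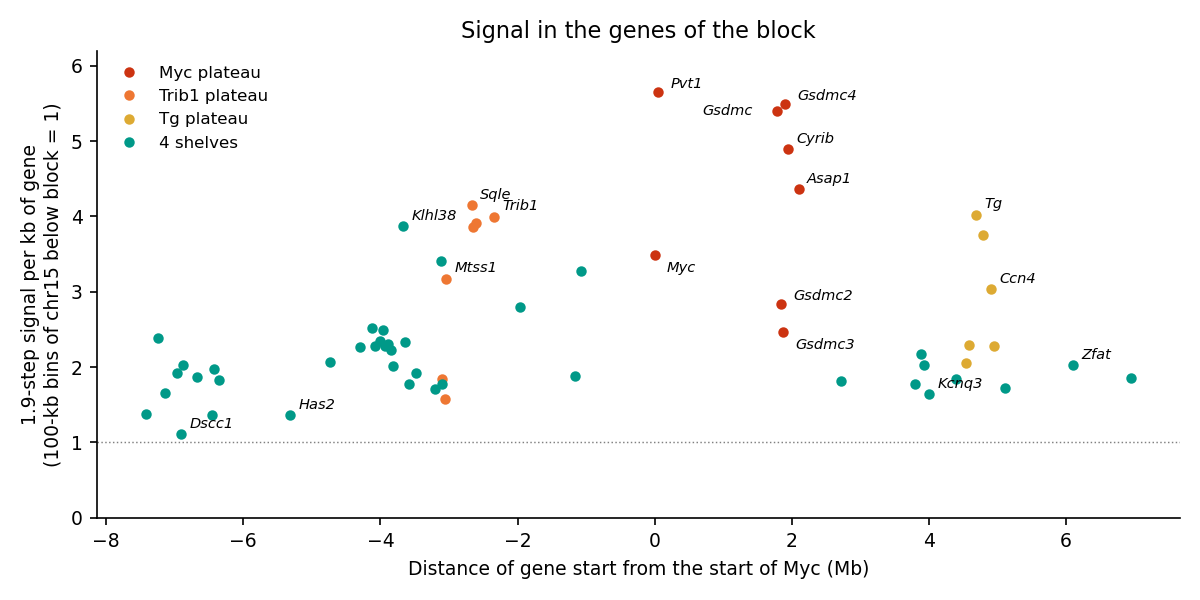
Summed 1.9-step signal per kb of gene, relative to 100-kb bins of chromosome 15 below the block (vertical axis), for the 60 protein-coding genes and Pvt1 against distance from the start of Myc in Mb (horizontal axis). Genes of the Myc plateau range from 2.47 in Gsdmc3 to 5.65 in Pvt1.

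A region of 4 or more steps lay within 1 kb of an end of 46 of the 60 protein-coding genes, or 76.7%. The share was 36.7% of the genes below the block and 38.9% of all protein-coding genes. The tallest at a gene end was the region with a highest signal of 20.9 at Trib1, followed by 19 at Gsdmc2 and 17.1 at Gsdmc4.

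Gene ends did not carry more of the signal of the Myc plateau than its desert did. Of the 1.9-step members, 2.05% (199 regions) came within 1 kb of an end of a protein-coding gene, against 1.73% (333 regions) below the block, where gene ends are also rarer. Sequence within 1 kb of a gene end made up 1.49% of the block and 1.23% of chromosome 15 below the block. A region can come within 1 kb by its edge alone, so these shares of sequence are compared with regions counted by midpoint. By midpoint, 1.55% of the 1.9-step regions of the block lay in that sequence, and 1.41% of those below the block. On the Myc plateau 1.33% of regions (32 of 2402) came within 1 kb of a gene end. By midpoint the share was 0.916%, where such sequence made up 0.882% of the plateau.

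Signal at gene ends relative to sequence far from genes was lower on the Myc plateau and higher off it. These classes use protein-coding genes only, so Pvt1 counts as intergenic sequence. On the plateau the level was 4.32 at gene ends and 4.43 in gene bodies, against 4.91 in intergenic sequence over 100 kb from a gene. The ratio between the gene ends and the far sequence was 0.880. Intergenic sequence up to 100 kb from a gene had the highest level of the plateau classes, 5.07. In the rest of the block the level was 2.43 at gene ends, 2.22 in gene bodies and 2.21 up to 100 kb from a gene. Far from genes it was 1.81, a ratio of 1.34 for gene ends. On the shelves alone, without the gene-rich Trib1 and Tg plateaus, the ratio was 1.20, and below the block it was 1.24. The plateau rests on 22 regions with their midpoint at gene ends, so its ratio is the least precise. The 7 protein-coding genes of the Myc plateau include Gsdmc, Gsdmc2, Gsdmc3 and Gsdmc4, close paralogs in which the placing of reads is uncertain. Over the whole block the ratio was 0.942. On the Myc plateau 67.3% of the sequence lies over 100 kb from a protein-coding gene, against 38.6% of chromosome 15 below the block.

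Heights at gene ends of the Myc plateau depended on how a region was assigned to a gene end. Of the 32 regions that came within 1 kb of an end, 71.9% had 4 or more steps, against 74.3% of the other regions of the plateau, and the mean heights were 4.75 and 4.70 steps. By midpoint, 59.1% of the 22 regions at gene ends had 4 or more steps, against 74.6% of those far from genes. Below the block the shares by midpoint were close, with 22.4% at gene ends and 22.0% far from genes.

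The 0.48-step regions, which the choice of the block did not use, were fewer on the Myc plateau. The Myc plateau held 84.4 of them per Mb, against 253 per Mb below the block, a ratio of 0.334. The ratio was 0.653 on the Trib1 plateau and 0.681 on the Tg plateau, and between 0.871 and 0.987 on the shelves. Per Mb of sequence not covered by 1.9-step regions, the Myc plateau held 228 of them, against 312 below the block, a ratio of 0.731. On that scale the ratio was 1.15 on the Trib1 plateau and 1.10 on the Tg plateau. That scale still counts 0.48-step regions that overlap 1.9-step regions, so it rises with the covered share. For 0.48-step regions clear of 1.9-step regions, per Mb of the same uncovered sequence, all 3 plateaus and the shelves were below 1. The ratio was then 0.279 on the Myc plateau, 0.595 on the Trib1 plateau and 0.746 on the Tg plateau. On the shelves it was between 0.824 and 0.904. A clear region must fit whole into a gap, so this scale falls where gaps are short. The median gap was 289 bp on the Myc plateau, against 1407 bp below the block. In bins of 500 kb, 6 of the 31 bins of the block held fewer than 0.5 times the autosomal median number, against 2.38% of the 5132 bins over the autosomes and X and 0 of 103 bins below the block. The 6 bins run side by side through the Myc plateau, with 35 to 45 regions each, or 0.278 to 0.357 times the median bin below the block. Over the whole block the median bin held 0.873 times that number. This last value turned to 1.09 when regions of 3 or more steps alone were counted. It turned to 1.08 when all 0.48-step regions were counted per Mb of sequence not covered by 1.9-step regions. Those clear of 1.9-step regions, on the scale that falls where gaps are short, numbered 174 per Mb of that sequence in the block. Below the block they numbered 225.

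Across the 31 bins of the block, the number of 0.48-step regions fell as the 1.9-step signal rose (Spearman's rho -0.663). Without the 6 bins of the Myc plateau rho was -0.373 over 25 bins. Below the block it was 0.042 over 103 bins. These are descriptions of bins of 1 table, which share sequence content and mappability, and the sets may come from differently scaled tracks.

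The sets also shared sequence. On the Myc plateau 72.5% of 0.48-step regions overlapped a 1.9-step region by at least 1 base, where 1.9-step regions covered 63.0% of the sequence. Below the block the values were 28.0% and 19.1%. A touch by 1 base is reached more easily than coverage base by base. Of all 250-base tiles, 76.9% on the Myc plateau and 28.1% below the block were touched by a 1.9-step region. The tiles are wider than the median 0.48-step region. Nothing particular to the 0.48-step regions is read from the overlap.

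The 0.48-step regions that were present on the plateau were a little shorter and not lower. Their median width was 174 bp, against 195 bp below the block, and 62.7% were 2 steps high, against 74.8%. Counting those of 3 or more steps alone, the Myc plateau held 0.494 times the number per Mb below the block, whereas the shelves held between 1.09 and 1.24 times. The tallest 0.48-step members were tied at a highest signal of 2.88, and 5 of them are named here. Others of that height lay on the Trib1 and Tg plateaus. The 5 named lay at 63534041 to 63534456 on the Myc plateau, near Sntb1, Slc22a22 and Enpp2 on the shelf next to the lower bound, and inside Adcy8.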

How the data were processed

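The authors deposited 1 headerless table laid out as SEACR output, holding for each called region its highest coverage signal and a score, the signal summed over its bases. SEACR, Bowtie2, deepTools and the mm10 build are named, without versions, per the submitters' processing notes. Thresholds, scaling and the libraries behind each region are not stated there, so no depth, library comparison or test was possible. Signal of the 2 step sets need not be on 1 scale. SEACR joins neighbouring signal above a threshold, so in dense sequence regions can merge, and widths and summed signal can then grow faster than numbers.

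Step sets were assigned with a tolerance of 0.001 steps of 1.9 or 0.48. Positions are 1-based. Levels along chromosome 15, from 3 to 75 Mb, were divided by an optimal least-squares partition of log2 summed signal in 100-kb bins, with at least 5 bins per segment and a penalty of 3 times the variance times the natural log of the number of bins. The partition was tried on simulated data only with steps planted in independent noise on a flat baseline. The chromosome below the block is not flat, with segment medians from 0.752 to 2.56, and that case was not simulated. Signal per kb of a gene counts the share of each region inside the gene. Genes and upstream sequences came from RefSeq (GRCm38.p6). Gene lists and the rule for named genes (list members, nearest genes of the 10 tallest and 10 widest 1.9-step and the 5 tallest 0.48-step members, the 5 highest and 5 lowest genes by signal per kb, and genes at level changes) were set with earlier results of these data known, as were the members of the block. Of the listed genes, Samd12 and Col22a1 lay outside the block. Python 3.11.15, numpy 2.4.6, pandas 2.3.3, scipy 1.17.1 and matplotlib 3.10.9 were used.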

Additional observations from a re-analysis of the deposited data

How the results depend on the processing

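Of 32 alternative values, 26 kept their direction and stayed within 1.5 times the main value, or within the binomial interval for a share. No paired analysis was possible because no region carries a replicate, and leaving out a library was not possible for the same reason. The block's median signal in 500-kb bins, 1.98 times that below the block, lay between 1.6 (number of regions) and 2.16 (1.5 Mb trimmed from each end). With the chromosome below the short raised stretch for comparison, chosen after seeing the data, it was 2.03. The number of 0.48-step regions per 500-kb bin, 0.873 times that below the block, turned to 1.09 for regions of 3 or more steps. It turned to 1.08 per Mb not covered by 1.9-step regions, a count that includes 0.48-step regions overlapping them. Those clear of 1.9-step regions, a count that falls where the gaps between 1.9-step regions are short, numbered 174 per uncovered Mb, against 225 below the block. The 7 level changes became 4 with 2 times the penalty, which dropped those at 66.5, 67.0 and 70 Mb. The changes at 58.9, 59.7, 61.3 and 64.7 Mb were found within 0.2 Mb in all 5 settings. The share of 1.9-step members of 4 or more steps, 47.4%, became 50.3% with 1.5 Mb trimmed from each end, 48.49% with regions within 100 bp merged and 38.6% without the Myc plateau, the last chosen after seeing the data. The median width at Myc and Pvt1 lay between 694 and 880 bp, and the fold of the gene-end share, 1.19, between 1.10 and 1.33. The unknown depth limits how far single regions of 2 or 3 steps can be read.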

Other observations

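A shorter raised stretch lay below the block, from 48.8 to 49.5 Mb, with a median level of 2.56 over 7 bins (1.62 to 4.36). It holds 0 protein-coding genes. Like the plateaus of the block it had more tall regions, with 53.0% of 1.9-step regions of 4 or more steps, and fewer 0.48-step regions, at 0.600 times the median of 100-kb bins below the block. Between it and the block the level was 1.27.

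The median distance of the summit from the middle of the region was 25.8% of the half-width on the Myc plateau and 24.4% below the block. The interval of highest signal was shorter on the plateau, with a median of 72 bp, against 107 bp below the block. Gaps of over 10 kb without a 1.9-step region numbered 6 in the block, against 266 in the longer stretch below it.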
